A study of Mus musculus with 36 samples.

Results

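The response of the liver to CL316243, which activates beta 3 adrenergic receptors, was compared between mice that had and mice that lacked ATGL in white adipose tissue. ATGL is adipose triglyceride lipase, the product of Pnpla2. The quantity examined was a difference of differences for every gene: the change from fed to CL316243-treated liver in AAKO mice minus the same change in CTRL mice. It used 24 of the 36 arrays of the series, chosen by their titles, with 6 mice and 1 array per mouse in each of 4 groups. AAKO denotes mice that lack ATGL in white adipose tissue, and CTRL denotes their controls. The CTRL fed and AAKO fed groups ate freely and carried the treatment label for control. The CTRL CL316243 and AAKO CL316243 groups were fed and received a single dose of 3 mg/kg CL316243 by gavage, in water with 0.5% carboxymethyl cellulose, at Zeitgeber time 10. All mice were C57Bl/6J males, had free access to a standard diet on a cycle of 12 h light and 12 h dark, and were killed at Zeitgeber time 16, when lights were off. The promoter that drove the deletion, the litters and the ages of the mice are not given in the sources used here. Total RNA (200 ng) was labelled with a single dye and hybridised to Agilent arrays. The remaining 12 arrays, of fasted mice, entered the choice of genes and probes, the wash batch term and the estimate of the spread. Their levels are not compared here.

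The beta 3 adrenergic receptor is found mainly on adipocytes, where its activation raises cyclic AMP and starts lipolysis. ATGL catalyses the first step of lipolysis, the release of a fatty acid from stored triglyceride. Fatty acids released by adipose tissue travel to the liver, where they are oxidised, turned into ketone bodies or stored in lipid droplets, and where they are ligands of the nuclear receptor PPARα. Beta 3 agonists also raise circulating insulin in mice, another signal to which hepatocytes respond. The comparison asks which liver responses to the agonist depend on ATGL in white adipose tissue.

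Both fed control groups belonged to experiment 2 and both CL316243 groups to experiment 1, per the labels. An effect of experiment, gavage or vehicle that was the same in both genotypes cancels in the difference of responses, and one that differed between genotypes cannot be told apart from it. Within a genotype, CL316243 cannot be told apart from experiment, gavage and vehicle, so a response means here the difference between the CL316243 and fed groups, and a change common to both genotypes cannot be credited to the agonist. Each of the 2 wash batches held arrays of every group. The number of probes well above background was 33866 to 36921 per array, with a group mean share of 62.1% to 62.8% of probes, and no spot was saturated. Hepatocyte markers were at a like level in all groups, with a summed log2 level between 11.69 and 12.00. One array stood apart: AAKO CL316243 replicate 6 had a summed level of 6 skeletal muscle markers of 7.54, while the other 23 arrays lay between -1.38 and -0.69, and it had the lowest median correlation with its own group (0.984). CTRL fed replicate 6 was the highest or lowest array of its group for several inflammation and detoxification genes, among them Saa1 and Mt2. The count of called genes and some list counts are also given without 1 of these arrays. The counts of classes, of 2-fold differences and of genotype differences use all arrays.

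Of 24251 genes tested, 2635 (10.9%) had a response to CL316243 that differed between the genotypes at an adjusted p under 0.05, and these genes are described as called. The response was higher in AAKO than in CTRL for 1538 genes (6.34%) and lower for 1097 (4.52%). Without AAKO CL316243 replicate 6 the count was 2343, with 1460 higher and 883 lower. Without CTRL fed replicate 6 the count was 2356, of which 59.6% were higher. The split moved with the processing: 58.4% of calls were higher on the main scale, 58.5% with median centring and 53.6% with quantile normalization. It was 44.1% of 2717 calls in the authors' deposited log2 values, which by their values were quantile normalized within each group. At least a 2-fold difference of responses was seen in 648 of the called genes, of which 295 were higher and 353 lower in AAKO. The median over all genes tested was 0.02 on the log2 scale. Within wash batch 1 alone 460 genes were called, 436 of them among the 2635, and within wash batch 2 alone 476, with 424 among them. Of the 2635 genes, 2633 had the same sign in both. They were chosen in the fit over both batches, so a shared sign is close to given and is not a replication.

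Most called genes were also called for the genotype difference after CL316243 and were not called for it in fed liver. In fed liver 19 genes (0.0783%) differed between AAKO and CTRL, 10 higher (0.0412%) and 9 lower (0.0371%) in AAKO, while after CL316243 the number was 6002 (24.7%). Of the 2635 called genes, 2508 were called for the genotype difference after CL316243 alone, 4 in fed liver alone, 4 in both states and 119 in neither. Between the fed and CL316243 groups, 5644 genes (23.3%) differed in CTRL liver and 7606 (31.4%) in AAKO liver. Of all genes, 10.4% rose and 12.8% fell in CTRL, and 15.7% rose and 15.7% fell in AAKO. Counts of responses within the lists below are to be read against these shares.

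**Figure D1:**
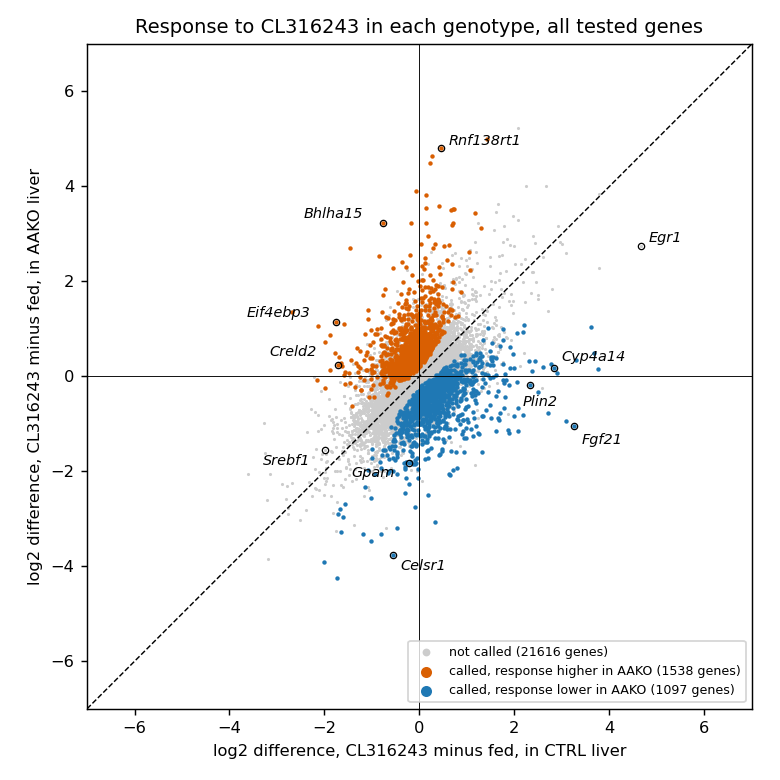
Each point is 1 of 24251 genes, placed by its log2 difference between CL316243 and fed liver in CTRL mice (horizontal) and in AAKO mice (vertical); the dashed line marks equal responses. The 1538 orange genes lie above the line and the 1097 blue genes below it; Fgf21 lies at 3.26 in CTRL and -1.04 in AAKO, and Srebf1, not called, lies near the line at -2.00 and -1.56.

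Sorted by the response called in each genotype, the largest class held 980 genes that rose in AAKO only, with a median response of 0.55 in AAKO and -0.05 in CTRL. Another 517 fell in AAKO only, with medians of -0.68 and 0.07. In 338 genes the level rose in CTRL only, with a median of 0.65 in CTRL and -0.11 in AAKO. It fell in CTRL only in 264, with medians of -0.46 and 0.11. Both responses were called in opposite directions in 115 genes that rose in CTRL and fell in AAKO and in 146 that fell in CTRL and rose in AAKO. The remaining calls were 103 genes that rose in both, 66 that fell in both and 106 that were called in neither genotype alone. In the authors' deposited log2 values, genes that fell in AAKO only were more numerous, at 700, and those that rose in AAKO only fewer, at 790.

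**Figure D2:**
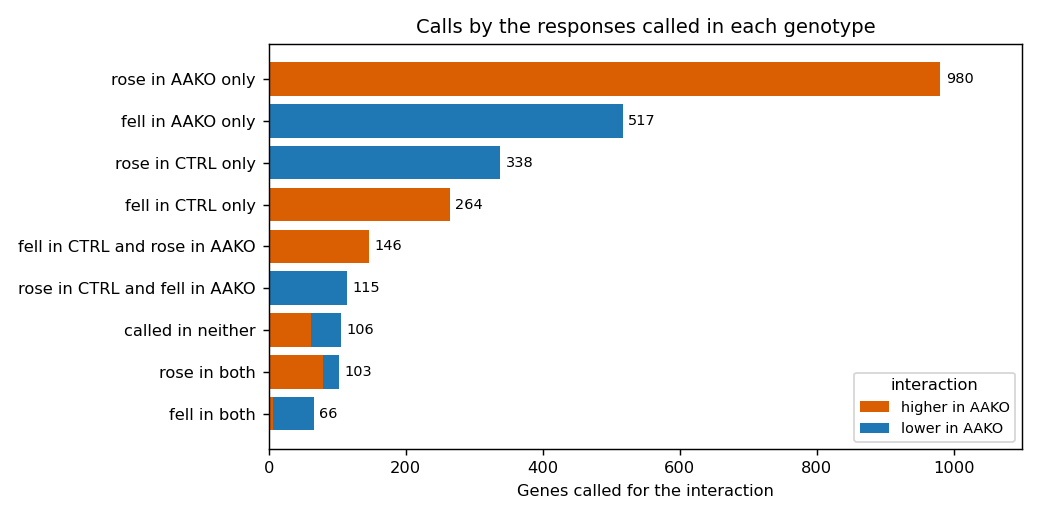
Bars count the 2635 called genes by the direction in which each genotype responded to CL316243, coloured by whether the AAKO response was higher (orange) or lower (blue) than the CTRL response. The largest class, 980 genes, rose in AAKO only.

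Fgf21, which encodes a hormone made by the liver under PPARα, had the largest negative difference of responses among the genes ranked for naming. Its log2 level, counted from the array's 75th percentile, ran from -3.97 over a median of -2.31 to -1.53 in CTRL fed mice and from 0.20 over 0.55 to 1.69 after CL316243. In AAKO mice the lowest, median and highest levels were -4.25, -2.99 and -0.43 in the fed state and -4.69, -3.64 and -3.15 after CL316243. All 6 CTRL mice given CL316243 were above every other mouse, and the AAKO groups overlapped. Fgf21 thus rose 9.55-fold in CTRL liver and its change in AAKO liver was not called (log2 -1.04 ± 0.59, SE), a difference of responses of -4.29 ± 0.83 or 19.6-fold (limma, adjusted p = 0.000663). The value was -5.02 in wash batch 1 and -3.38 in wash batch 2, and over all alternative fits it lay between -5.02 and -2.83. The probe lies at chr7:52869305-52869364 on the mm9 assembly, and the files place no probe in an exon or UTR.

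Plin2, which coats lipid droplets in hepatocytes and is a target of PPARα, showed a like pattern with little spread. Its level was 5.17 ± 0.11 (SD, n = 6) in CTRL fed and 7.48 ± 0.34 in CTRL CL316243 liver, a 4.99-fold rise. The AAKO levels were 5.18 ± 0.24 fed and 5.01 ± 0.49 after CL316243. The lowest CTRL mouse given CL316243 (7.06) was above the highest of the other 3 groups (5.52). The difference of responses was -2.50 ± 0.35 (adjusted p = 1.26e-05), and the second Plin2 probe gave -2.04. The Plin2 probe is at chr4:86302847-86302906.

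PPARα binds paired AGGTCA sites 1 base apart, and promoters were searched for such pairs. The Plin2 promoter is shown because it had the fewest mismatches of the 14 searched, and the Fgf21 promoter is shown whatever its match. Sequences are from RefSeq for GRCm38.p6, read along the gene's strand, which is the minus strand for both. In the Plin2 stretch (chr4:86670160-86670309) capitals mark the place with the fewest mismatches to AGGTCANAGGTCA on either strand, and the Fgf21 stretch (chr7:45615491-45615640) ends at the base before the gene's start and has no capitals.
Plin2: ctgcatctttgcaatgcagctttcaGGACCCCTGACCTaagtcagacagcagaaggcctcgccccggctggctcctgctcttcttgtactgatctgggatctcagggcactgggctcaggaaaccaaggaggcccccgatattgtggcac
Fgf21: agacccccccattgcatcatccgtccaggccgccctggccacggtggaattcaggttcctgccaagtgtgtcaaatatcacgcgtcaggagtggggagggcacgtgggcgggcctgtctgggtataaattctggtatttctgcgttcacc
The Plin2 match has 2 mismatches and starts 225 bases before the gene's start. The search covered the 250 bases before each start. Of 12 named genes of the fatty acid oxidation, lipid droplet and hormone lists, 11 had a promoter in the table, with 14 promoters between them, and the Plin2 promoter alone held a match with at most 2 mismatches. Over all 32851 promoters, 3.24% held such a match, 0.484% one with at most 1 mismatch and 0.0335% an exact one. These letters describe the window and say nothing of binding elsewhere.

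Other liver hormones differed in both directions. Of 28 genes for liver-secreted hormones and their regulators, 7 had a lower and 1 a higher response in AAKO, against 4.52% and 6.34% of all genes. The activin and inhibin subunits, hormones of the TGF-beta family, gave 3 of the lower calls, Inhba, Inhbc and Inhbe, and Inhbb was not called (0.69 ± 0.57). Inhba levels in AAKO mice were 0.24, 0.39 and 0.73 (lowest, median, highest) when fed and -1.74, -1.54 and -1.04 after CL316243, with no overlap. In CTRL mice they were -0.71, -0.33 and 0.98 when fed and 0.10, 0.49 and 1.01 after CL316243. Inhba fell in AAKO and its change in CTRL was not called, for a difference of -2.67 ± 0.42 (adjusted p = 4.88e-05). Inhbe, a subunit made mainly by the liver, rose by 1.02 in CTRL with -0.63 in AAKO (difference -1.64 ± 0.44), and Inhbc fell by 1.07 in AAKO with 0.20 in CTRL (-1.27 ± 0.28).

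Angptl4, an inhibitor of lipoprotein lipase and a PPARα target, rose 2.21-fold in CTRL liver, from 5.21 ± 0.30 to 6.35 ± 0.30. In AAKO liver it was 4.91 ± 0.85 fed and 4.82 ± 0.25 after CL316243, giving a difference of -1.25 ± 0.33 (adjusted p = 0.0119). Angptl8, an insulin-responsive hormone, differed by 2.28 ± 0.85, which was not called (adjusted p = 0.0831). It fell in CTRL by 3.27 and its AAKO change of -0.99 was not called, with AAKO CL316243 levels spread from 1.94 to 6.15. The value rested on wash batch 2, at 5.12, against 0.15 in wash batch 1. Igfals, which stabilises circulating IGF1, and Lect2, a hepatokine, fell in AAKO with differences of -0.89 ± 0.26 and -0.55 ± 0.17. Igf1 itself differed by 0.04 ± 0.09 and was not called. The higher calls numbered 2 without CTRL fed replicate 2, AAKO fed replicate 4, or AAKO CL316243 replicate 1 or 5.

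Hamp, the gene for the iron hormone hepcidin, moved the other way. AAKO levels ran from 6.38 over 6.74 to 7.40 when fed and from 8.17 over 8.46 to 8.57 after CL316243, while CTRL levels ran from 6.76 to 7.50 and from 6.30 to 7.61. Every AAKO mouse given CL316243 was above all other mice. The rise was 3.01-fold in AAKO and the difference of responses 1.68 ± 0.28 (adjusted p = 0.000114).

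**Figure D3:**
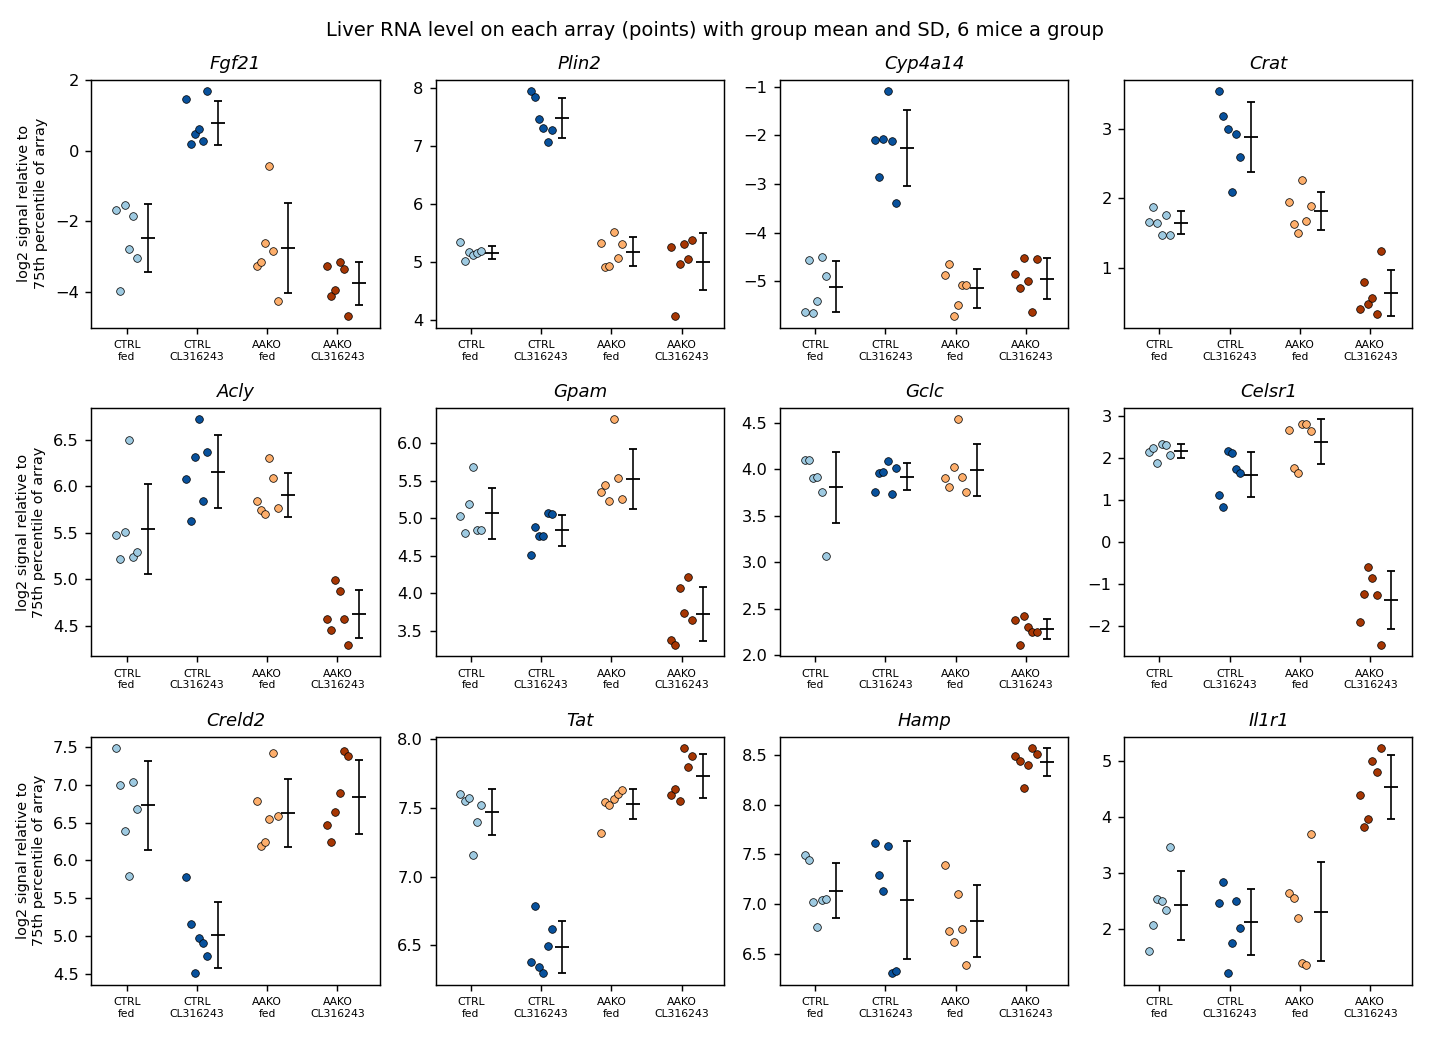
Points give the log2 level, with the array's 75th percentile as 0, of 12 genes on each of the 24 arrays, with the group mean and SD (6 mice) beside them; vertical axes differ between panels. Fgf21, Plin2 and Cyp4a14 are high in the CTRL CL316243 group, Crat is high there and low in AAKO CL316243, Gclc, Gpam and Celsr1 are low in AAKO CL316243, Creld2 and Tat are low in CTRL CL316243, and Hamp and Il1r1 are high in AAKO CL316243.

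Among PPAR receptors and coregulators, 5 of 18 genes had a lower response in AAKO and 1 a higher one (4.52% and 6.34% of all genes). Ppara, the receptor for fatty acids in hepatocytes, rose by 0.52 in CTRL and fell by 0.52 in AAKO. Its levels after CL316243 were 5.91 to 6.31 in CTRL and 4.51 to 5.24 in AAKO, with no overlap, and the difference was -1.04 ± 0.19 (adjusted p = 0.000315). Creb3l3 encodes CREBH, a membrane-bound transcription factor that acts on Fgf21 with PPARα. It rose from 6.54 ± 0.09 to 7.04 ± 0.11 in CTRL and fell from 6.38 ± 0.08 to 6.09 ± 0.14 in AAKO, for a difference of -0.81 ± 0.11 (adjusted p = 8.86e-06). Pparg fell in AAKO (difference -1.24 ± 0.27), as did Lpin2 (-1.01 ± 0.30), a lipin that produces diacylglycerol. Ncoa1 differed by -0.28 and the mediator subunit Med1 by 0.34, while Rxra, the partner of PPARα, rose in both genotypes with an uncalled difference of 0.03 ± 0.10. The count of lower calls was 3 of 18 without CTRL CL316243 replicate 2 or AAKO fed replicate 5.

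Fatty acid oxidation outside mitochondria gave lower responses in AAKO. Of 27 genes tested, 16 had a lower response in AAKO and none a higher one (4.52% and 6.34% of all genes). The median difference was -0.75 against 0.02 over all genes. With normexp background correction, 14 were lower and the median was -0.46 against 0.04. In CTRL liver 13 of the 27 rose and 2 fell (10.4% and 12.8% of all genes), and in AAKO liver 2 rose and 9 fell (15.7% of all genes for each). No member was called for a genotype difference in fed liver. The count was 15 without AAKO CL316243 replicate 6.

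Of 5 microsomal omega-hydroxylases of the Cyp4a family tested, Cyp4a10, Cyp4a14 and Cyp4a31 rose in CTRL liver alone. Cyp4a12a and Cyp4a12b differed by 0.39 ± 0.36 and 0.25 ± 0.35 and were not called. Genes of this family are classical PPARα targets. Cyp4a14 levels were -5.65, -5.15 and -4.50 (lowest, median, highest) in CTRL fed and -3.39, -2.10 and -1.09 in CTRL CL316243 mice, without overlap. In AAKO mice they were -5.72, -5.08 and -4.64 fed and -5.63, -4.92 and -4.52 after CL316243. The rise was 7.17-fold in CTRL and the difference of responses -2.67 ± 0.49 (adjusted p = 0.000372). That difference lay between -2.87 and -0.86 over the alternative fits. The probe was above background on 4, 6, 5 and 5 of the 6 arrays of CTRL fed, CTRL CL316243, AAKO fed and AAKO CL316243. Cyp4a10 rose 5.20-fold in CTRL with 0.10 on the log2 scale in AAKO (difference -2.28 ± 0.45), and Cyp4a31 rose by 2.60 in CTRL with 0.20 in AAKO (-2.40 ± 0.45). These paralogs are near-identical, so their probes may read each other's transcripts.

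Acyl-CoA thioesterases, which release free fatty acids from coenzyme A, gave 6 lower calls, where 4.52% of all genes were lower. These calls are part of the counts of the oxidation lists, Acot1 and Acot2 in that of mitochondrial oxidation given next. A gene's list does not settle where in the cell its enzyme lies. Acot3 differed by -3.46 ± 0.77, Acot1 by -2.46 ± 0.53, Acot2 by -2.17 ± 0.41, Acot4 by -1.90 ± 0.35, Acot5 by -1.78 ± 0.50 and Acot8 by -0.44 ± 0.13, all called, and Acot12 by -0.17 ± 0.18, not called. Acot2, the mitochondrial enzyme, had levels of -2.18, -1.85 and -1.75 in CTRL fed and -0.60, 0.20 and 0.65 in CTRL CL316243 mice. Its AAKO levels were -3.05, -2.74 and -1.86 fed and -3.00, -2.77 and -2.35 after CL316243. The CTRL groups did not overlap and the AAKO groups overlapped. Acot4 rose by 0.99 in CTRL and fell by 0.90 in AAKO. The family's genes are close in sequence and position, and cross-reading between their probes was not tested.

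Crat, which moves short acyl groups between carnitine and coenzyme A, had responses called in opposite directions. It rose from 1.65 ± 0.16 to 2.89 ± 0.50 in CTRL and fell from 1.82 ± 0.27 to 0.64 ± 0.34 in AAKO, with a difference of -2.43 ± 0.27 (adjusted p = 6.06e-07). Every AAKO mouse given CL316243 (at most 1.25) was below all other mice. A second Crat probe gave -1.58. Abcd3, a peroxisomal fatty acid transporter, rose by 0.48 in CTRL and fell by 0.61 in AAKO. Aldh3a2, which oxidises fatty aldehydes, changed in AAKO alone, from 3.64 ± 0.37 to 2.42 ± 0.19 (difference -1.44 ± 0.26). Crot, which prepares medium-chain acyl groups for export from peroxisomes, rose in both genotypes, by 1.75 in CTRL and 1.00 in AAKO. Ehhadh, a peroxisomal enzyme with hydratase and dehydrogenase activity, differed by -0.95 ± 0.34 and was not called (adjusted p = 0.0666).

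**Figure D4:**
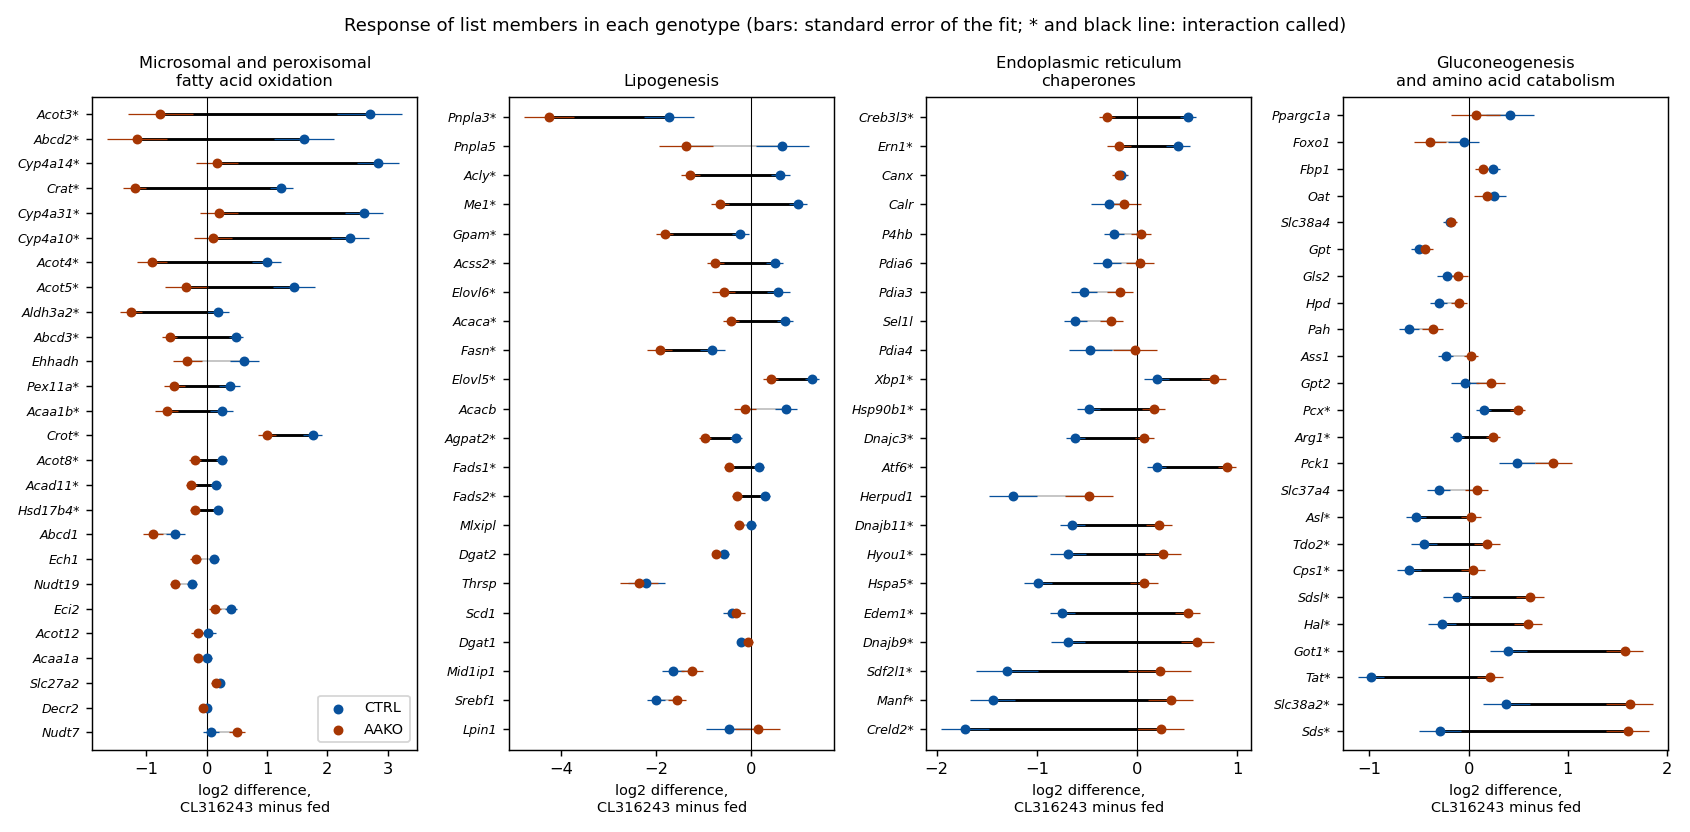
Each row is a gene of 1 of 4 lists, with its log2 difference between CL316243 and fed liver in CTRL (blue) and AAKO (brown), bars giving the standard error of the fit; black lines and asterisks mark called differences of responses. In the fatty acid oxidation and lipogenesis panels the AAKO point lies left of the CTRL point for every called gene; in the amino acid panel it lies right of it for every called gene, and in the chaperone panel for 12 of 14.

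Mitochondrial fatty acid oxidation and ketogenesis gave 10 lower calls among 28 genes and no higher ones (4.52% and 6.34% of all genes). The median difference was -0.36. In CTRL liver 12 rose and none fell, and in AAKO liver 1 rose and 4 fell. The differences were smaller than in the first list. Cpt2, the inner carnitine palmitoyltransferase, rose from 5.71 ± 0.08 to 6.07 ± 0.16 in CTRL and fell from 5.57 ± 0.18 to 5.26 ± 0.12 in AAKO (difference -0.68 ± 0.15, adjusted p = 0.00172). The carnitine carrier Slc25a20 differed by -0.72 ± 0.17, the trifunctional protein subunit Hadhb by -0.42 ± 0.11 and the dehydrogenase Hadh by -0.66 ± 0.17. Slc16a1, which exports ketone bodies, rose by 0.93 in CTRL with -0.23 in AAKO (difference -1.16 ± 0.18).

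Cpt1a, the entry step of mitochondrial oxidation, was not called for the difference. It rose by 0.74 in CTRL and by 0.86 in AAKO. The difference of responses was 0.11 ± 0.16 (adjusted p = 0.757), and 0.25 and -0.11 within the wash batches. Pdk4, which restrains pyruvate oxidation, differed by -0.48 ± 0.69 (adjusted p = 0.751). Its levels in AAKO mice given CL316243 ran from -2.09 over -1.84 to 0.94, and the highest was replicate 6, the array with the muscle markers.

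Lipid droplet and fatty acid uptake genes were less uniform. They gave 6 lower calls and 1 higher call among 28 (4.52% and 6.34% of all genes). Plin5, which tethers droplets to mitochondria, fell by 1.43 in AAKO with -0.07 in CTRL (difference -1.36 ± 0.29). Mgll, which completes triglyceride breakdown, fell from 4.87 ± 0.07 to 3.97 ± 0.22 in AAKO with 5.13 ± 0.09 and 5.26 ± 0.22 in CTRL (difference -1.02 ± 0.18). Acsl1, which activates fatty acids, fell from 6.77 ± 0.25 to 5.59 ± 0.30 in AAKO (difference -1.42 ± 0.23, adjusted p = 5.99e-05), and its other probes gave -1.60 and -3.80. Acsl5 rose by 0.48 in CTRL and fell by 0.37 in AAKO. Vnn1, a pantetheinase under PPARα, was already lower in AAKO fed liver by 1.35, and it differed by -1.12 ± 0.34, without a call when AAKO fed replicate 3 was left out (-1.03, adjusted p = 0.0529). The droplet protein Cidec rose 3.39-fold in CTRL with 0.29 on the log2 scale in AAKO, and the difference of -1.47 ± 0.58 was not called (adjusted p = 0.106). The fatty acid carriers Cd36, Fabp1 and Slc27a5 differed by 0.20, -0.11 and -0.15 and were not called.

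Pnpla2, the gene deleted in white adipose tissue of AAKO mice, is measured here in liver, so its level does not check the deletion. It was 3.88 ± 0.18 in CTRL fed and 4.06 ± 0.16 in CTRL CL316243 liver. In AAKO liver it rose from 3.43 ± 0.44 to 4.71 ± 0.39, with levels of 2.95 to 3.96 fed and 4.33 to 5.42 after CL316243. The difference of responses was 1.11 ± 0.26 (adjusted p = 0.00479). G0s2, an inhibitor of ATGL, fell by 3.19 in AAKO with -0.70 in CTRL, and the difference of -2.49 ± 0.89 was not called (adjusted p = 0.069).

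Lipogenesis, the synthesis of fatty acids and triglyceride, also gave lower responses in AAKO. Of 22 genes, 12 had a lower response in AAKO and none a higher one (4.52% and 6.34% of all genes). The median difference was -0.76. In CTRL liver 7 rose and 6 fell, and in AAKO liver 1 rose and 13 fell. Acly, which supplies cytosolic acetyl-CoA, had levels of 5.22, 5.39 and 6.50 in CTRL fed and 5.63, 6.19 and 6.72 in CTRL CL316243 mice. In AAKO mice they were 5.71, 5.81 and 6.31 fed and 4.30, 4.57 and 4.99 after CL316243, below every other mouse. The responses were called in opposite directions, with a difference of -1.90 ± 0.28 (adjusted p = 2.12e-05).

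Gpam, the first enzyme of triglyceride synthesis, fell 3.52-fold in AAKO, from 5.52 ± 0.40 to 3.73 ± 0.36, with 5.06 ± 0.34 and 4.84 ± 0.21 in CTRL (difference -1.59 ± 0.26, adjusted p = 9.47e-05). Malic enzyme Me1, a source of NADPH, rose by 0.99 in CTRL and fell by 0.65 in AAKO (difference -1.64 ± 0.27), and its second probe gave -0.78. Acaca (-1.15 ± 0.24), Acss2 (-1.26 ± 0.25), Elovl6 (-1.15 ± 0.34), Elovl5 (-0.87 ± 0.22) and Fasn (-1.11 ± 0.37) were also called. Fasn, the fatty acid synthase, fell in both genotypes, by 0.81 in CTRL and 1.92 in AAKO. Pnpla3 fell in both too, by 1.73 and 4.25.

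Regulators of the pathway were not called for the difference. Srebf1, which encodes SREBP-1, fell 3.99-fold in CTRL and 2.94-fold in AAKO. The difference of responses was 0.44 ± 0.27 (adjusted p = 0.354). Levels after CL316243 overlapped, at 4.18 to 4.61 in CTRL and 3.98 to 4.98 in AAKO. The insulin-responsive genes Thrsp and Mid1ip1 fell in both genotypes, with differences of -0.15 ± 0.56 and 0.40 ± 0.33, and the glucose-responsive factor Mlxipl differed by -0.25 ± 0.15.

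Cholesterol synthesis stood near the background, with 2 lower calls and 1 higher call among 24 genes (4.52% and 6.34% of all genes). Dhcr7 and Sc5d, late steps of the pathway, differed by -0.98 ± 0.20 and -0.95 ± 0.20, and Mvd by 0.95 ± 0.29. Lower calls numbered 4 without CTRL fed replicate 4 or without CTRL CL316243 replicate 4, and Mvd was not called without CTRL fed replicate 1, CTRL CL316243 replicate 2, AAKO fed replicate 3 or AAKO CL316243 replicate 5. The second Sc5d probe gave -0.46.

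Glucose use and glycogen gave 4 lower calls among 23 genes and no higher ones (4.52% and 6.34% of all genes). The glucose transporter Slc2a2 fell 2.40-fold in AAKO, from 1.84 ± 0.50 to 0.57 ± 0.32, with 2.04 ± 0.29 and 2.17 ± 0.29 in CTRL (difference -1.39 ± 0.37, adjusted p = 0.0115). Irs1, an insulin receptor substrate, fell from 1.45 ± 0.25 to -0.07 ± 0.59 in AAKO (difference -1.20 ± 0.30). Txnip, induced by glucose, fell by 0.98 in AAKO with 0.39 in CTRL, and the fructose kinase Khk fell by 0.37. Irs2, which insulin represses, rose in both genotypes, by 2.18 and 1.98, with a difference of -0.20 ± 0.44. The count lay between 3 and 6 when each array was left out in turn.

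Amino acid catabolism and gluconeogenesis gave higher responses in AAKO. There were 11 higher calls among 25 genes and no lower ones (6.34% and 4.52% of all genes), and the median was 0.35. In CTRL liver 1 rose and 9 fell, and in AAKO liver 8 rose and 3 fell. Tat, which starts tyrosine breakdown, had levels of 7.16, 7.54 and 7.60 in CTRL fed and 6.30, 6.44 and 6.79 in CTRL CL316243 mice, without overlap. In AAKO mice it was 7.32, 7.55 and 7.63 fed and 7.55, 7.72 and 7.94 after CL316243. It fell 1.97-fold in CTRL, its AAKO change was not called, and the difference was 1.20 ± 0.19 (adjusted p = 4.81e-05).

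Sds, serine dehydratase, rose 3.04-fold in AAKO, from 4.03 ± 0.38 to 5.64 ± 0.30, with 4.50 ± 0.37 and 4.21 ± 0.21 in CTRL (difference 1.89 ± 0.30, adjusted p = 5.99e-05). Got1, the aspartate aminotransferase, rose 2.97-fold in AAKO (difference 1.17 ± 0.27), as did the amino acid transporter Slc38a2 by 1.62 (1.24 ± 0.33). The urea cycle genes Cps1 and Asl fell in CTRL alone, by 0.60 and 0.53, with differences of 0.65 ± 0.17 and 0.55 ± 0.14. Arg1 rose by 0.25 in AAKO (difference 0.36 ± 0.10). Hal, which breaks down histidine, and Tdo2, which breaks down tryptophan, differed by 0.87 ± 0.20 and 0.64 ± 0.19. Of the gluconeogenic enzymes, pyruvate carboxylase Pcx was called (0.35 ± 0.11). Pck1 differed by 0.37 ± 0.26 (adjusted p = 0.438), G6pc by -0.84 ± 0.55 and Fbp1 by -0.10 ± 0.11.

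**Figure D5:**
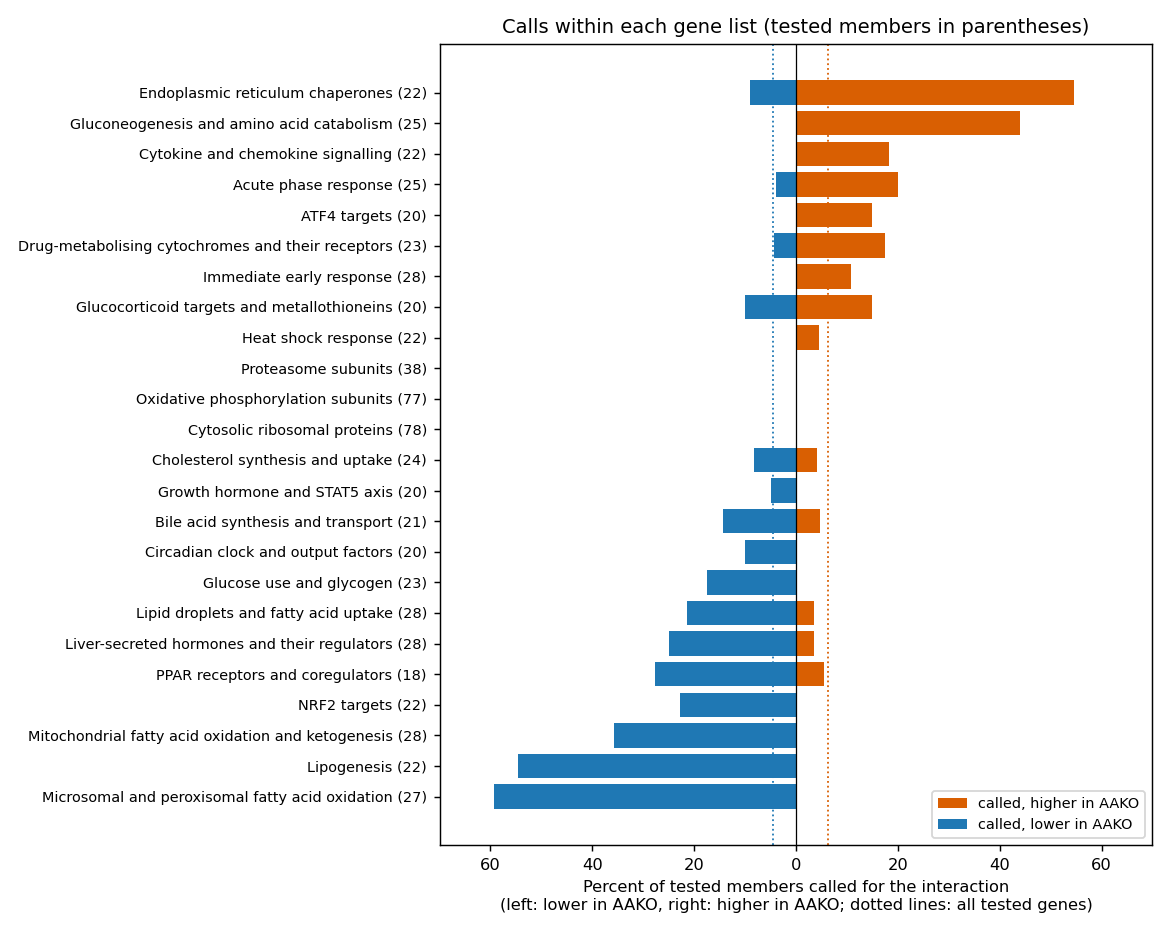
Bars give the percent of tested members of each gene list (number in parentheses) called for a higher (orange, right) or lower (blue, left) response in AAKO; dotted lines mark 6.34% and 4.52%, the shares over all 24251 genes. Fatty acid oxidation and lipogenesis lie furthest left and endoplasmic reticulum chaperones and amino acid catabolism furthest right, and 3 lists have no call.

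Endoplasmic reticulum chaperones, which fold secreted proteins, mostly fell in CTRL liver and were mostly not called in AAKO liver. Of 22 genes, 12 had a higher response in AAKO and 2 a lower one (6.34% and 4.52% of all genes). The median difference was 0.67. In CTRL liver 2 rose and 13 fell, and in AAKO liver 4 rose and 1 fell. Creld2, induced when proteins misfold, had levels of 5.79, 6.84 and 7.49 in CTRL fed and 4.50, 4.94 and 5.78 in CTRL CL316243 mice, the groups being just apart. In AAKO mice it was 6.20, 6.57 and 7.42 fed and 6.24, 6.76 and 7.45 after CL316243. It fell 3.29-fold in CTRL, and the difference of responses was 1.96 ± 0.34 (adjusted p = 0.000163).

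Manf, a secreted chaperone, fell by 1.44 in CTRL with 0.34 in AAKO (difference 1.78 ± 0.31). Hspa5, the central chaperone BiP, fell by 0.99 with 0.07 in AAKO (1.06 ± 0.19), and Dnajb11, Dnajc3, Hyou1, Hsp90b1 and Sdf2l1 fell in CTRL alone as well. Edem1, which removes misfolded proteins, had responses called in opposite directions, -0.75 in CTRL and 0.51 in AAKO, with a difference of 1.25 ± 0.17 (adjusted p = 1.21e-05). A second Edem1 probe gave 0.55. Atf6, a sensor of the unfolded protein response, and Xbp1, a transcription factor of that response, rose in AAKO alone (differences 0.70 ± 0.13 and 0.57 ± 0.18). Ern1, the sensor that splices Xbp1, rose in CTRL (difference -0.59 ± 0.17). The other lower call was Creb3l3, described above with PPARα.

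Other stress responses gave fewer calls. ATF4 targets gave 3 higher calls among 20 genes (6.34% of all genes), and the sign of their median changed with the scaling. Atf4 rose from 6.37 ± 0.16 to 6.89 ± 0.16 in AAKO with 6.28 ± 0.20 and 6.07 ± 0.12 in CTRL (difference 0.73 ± 0.14, adjusted p = 0.000686). Ddit3 fell in CTRL (difference 1.14 ± 0.24), and Ppp1r15a, which reverses the block of translation, rose in AAKO (0.84 ± 0.21). Heat shock genes were lower in the CL316243 than in the fed groups of both genotypes. The counts were 18 of 22 in CTRL and 16 of 22 in AAKO (12.8% and 15.7% of all genes). This change cannot be told apart from experiment, gavage and vehicle. Of these 22, Bag3 alone was called for the difference (0.93 ± 0.24), and 2 genes were called without CTRL fed replicate 4, AAKO fed replicate 3 or 4, or AAKO CL316243 replicate 1 or 5. Hspa1a fell 12.1-fold in CTRL and 4.15-fold in AAKO, a difference of 1.55 ± 0.53 that was not called (adjusted p = 0.0572).

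Acute phase genes, made by hepatocytes under IL-6 and IL-1, gave 5 higher and 1 lower call among 25 (6.34% and 4.52% of all genes). The median difference was 0.39. In CTRL liver 4 rose and none fell (10.4% and 12.8% of all genes). In AAKO liver 15 rose and none fell (15.7% of all genes for each). Serpina3n rose 5.25-fold in AAKO, from 3.98 ± 0.64 to 6.35 ± 0.42, with 3.84 ± 0.46 and 3.96 ± 0.45 in CTRL (difference 2.27 ± 0.43, adjusted p = 0.000551). Steap4, a metalloreductase, rose 4.07-fold in AAKO (difference 1.98 ± 0.50). Fga, Crp and Saa4 differed by 1.14 ± 0.31, 0.99 ± 0.27 and 1.25 ± 0.36. Il1rn, the antagonist of IL-1, had the opposite sign, rising 12.3-fold in CTRL, with a difference of -2.58 ± 0.61. Its second probe gave -0.57 (limma, unadjusted p = 0.108), so that call rests on 1 of 2 probes.

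Saa1, the most variable acute phase gene, was not called (1.05 ± 1.42, adjusted p = 0.733). CTRL fed mice ran from 5.53 over 6.63 to 9.60, the highest being replicate 6, and AAKO fed mice from 4.70 to 10.08. After CL316243 the range was 6.95 to 10.34 in CTRL and 9.83 to 10.16 in AAKO, where all 6 mice were high. Mt2, a metallothionein, had the same layout, with 9.40 to 9.67 in AAKO mice given CL316243 and 1.74 to 9.37 elsewhere, and was not called (1.35 ± 1.33).

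Cytokine and chemokine signalling gave 4 higher calls among 22 genes and no lower one (6.34% and 4.52% of all genes). Il1r1, the receptor for IL-1, rose 4.91-fold in AAKO. Its levels were 1.37, 2.39 and 3.71 in AAKO fed and 3.83, 4.61 and 5.24 in AAKO CL316243 mice, with 1.62, 2.42 and 3.48 and 1.22, 2.25 and 2.84 in CTRL. Every AAKO mouse given CL316243 was above all others, and the difference was 2.59 ± 0.53 (adjusted p = 0.00112). Osmr, the oncostatin M receptor, differed by 1.29 ± 0.36, with 0.41 and 0.80 from its other probes, the shared receptor chain Il6st by 0.50 ± 0.15 and Icam1 by 0.76 ± 0.23. Icam1 was not called without any 1 of 11 arrays: CTRL fed replicate 2, 5 or 6, CTRL CL316243 replicate 3 or 4, AAKO fed replicate 2, 3 or 5, and AAKO CL316243 replicate 4, 5 or 6. The count was 2 without AAKO CL316243 replicate 5 or without replicate 6 of that group, and 2 lower calls appeared without CTRL fed replicate 2. Neutrophil markers had a median difference of 0.52 with none of 10 called, and Kupffer cell markers -0.02 with none of 10 called. In whole liver, more cells of a type and more RNA per cell cannot be told apart, and the part of these cells in the cytokine and acute phase values was not tested.

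Of 28 immediate early genes, 3 had a higher response in AAKO and none a lower one. That is near the shares over all genes, 6.34% higher and 4.52% lower. Jun rose in AAKO by 0.97 with -0.56 in CTRL (difference 1.53 ± 0.44), and Jund (0.80 ± 0.18) and Btg2 (1.90 ± 0.50) rose in AAKO as well. The count was 5 without AAKO fed replicate 4 or without AAKO CL316243 replicate 3, and 2 lower calls appeared without CTRL fed replicate 2 or AAKO CL316243 replicate 1. Egr1, a growth factor target, rose 25.5-fold in CTRL and 6.73-fold in AAKO. After CL316243 its lowest, median and highest levels were 0.62, 3.43 and 4.18 in CTRL mice, against 0.12, 0.77 and 1.45 in AAKO mice, and the difference of -1.92 ± 0.70 was not called (adjusted p = 0.073).

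Detoxification genes included one of the most tightly separated members. Gclc, the catalytic subunit for glutathione synthesis, fell 3.36-fold in AAKO, from 3.99 ± 0.28 to 2.28 ± 0.11, with 3.81 ± 0.38 and 3.92 ± 0.14 in CTRL. The highest AAKO mouse given CL316243 (2.42) was below the lowest of all other mice (3.07), and the difference was -1.86 ± 0.20 (adjusted p = 2.58e-07). With Gclc, 5 of 22 NRF2 targets had a lower response in AAKO and none a higher one (4.52% and 6.34% of all genes). The others were Pgd (-0.86 ± 0.16), Nqo1 (-0.56 ± 0.18), Ephx1 (-0.58 ± 0.16) and Gclm (-0.31 ± 0.10). The count was 3 without AAKO CL316243 replicate 6, without CTRL fed replicate 4, 5 or 6, and without any of 5 other arrays: CTRL CL316243 replicate 3, 5 or 6, AAKO fed replicate 4 and AAKO CL316243 replicate 5. Gclm itself was not called when any 1 of 13 arrays was left out.

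Drug-metabolising cytochromes and their receptors gave 4 higher calls and 1 lower call among 23 (6.34% and 4.52% of all genes). Nr1i3 encodes CAR, the receptor that drives Cyp2b genes. It fell 3.05-fold in AAKO, from 1.97 ± 0.16 to 0.38 ± 0.39, with 2.18 ± 0.25 and 2.02 ± 0.24 in CTRL (difference -1.44 ± 0.22, adjusted p = 3.22e-05). Cyp2b10 had a positive difference of 2.77 ± 0.82 (adjusted p = 0.0238) that came with a genotype difference in fed liver. Its levels were 0.19 to 0.77 in CTRL fed, -2.22 to 0.07 in CTRL CL316243, -4.39 to -1.24 in AAKO fed and -3.88 to 0.44 in AAKO CL316243 mice. It was thus lower in AAKO fed liver by 3.53 and fell in CTRL by 1.89, and the difference was 1.29 in wash batch 1 (adjusted p = 0.629) and 4.77 in wash batch 2. Cyp2b10 was not called without AAKO CL316243 replicate 4 (2.14, adjusted p = 0.0538). Cyp2b9, a close paralog, gave 2.73 ± 0.90. Por, the electron donor of these enzymes, and Cyp3a13 differed by 0.72 ± 0.20 and 0.84 ± 0.24. The higher calls numbered 2 without AAKO CL316243 replicate 4, and the lower calls 2 without CTRL fed replicate 3 or AAKO CL316243 replicate 3.

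Bile acid synthesis and transport gave 3 lower calls and 1 higher call among 21 genes (4.52% and 6.34% of all genes). Abcb4, which moves phospholipid into bile, rose from 5.53 ± 0.20 to 6.42 ± 0.06 in CTRL with 5.30 ± 0.20 and 5.20 ± 0.16 in AAKO. The lowest CTRL mouse given CL316243 (6.31) was above all other mice, and the difference was -0.99 ± 0.14 (adjusted p = 1.24e-05). Nr1h4, the bile acid receptor FXR, differed by -0.73 ± 0.19 with -0.29 from its second probe, and Slco2b1 by -0.60 ± 0.15 with -0.25. Baat, which conjugates bile acids, differed by 0.54 ± 0.15, and Cyp7a1, the rate-limiting enzyme, by -1.18 ± 0.60 without a call.

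Glucocorticoid targets and metallothioneins gave 3 higher and 2 lower calls among 20 genes (6.34% and 4.52% of all genes). Tat was counted again, with Slc39a14 at 1.27 ± 0.38, Nnmt at 0.98 ± 0.26, Pik3r1 at -0.76 ± 0.23 and the receptor Nr3c1 at -0.35 ± 0.12. The median of this list was 0.74 with all arrays and 0.43 without CTRL fed replicate 6. No lower call was left without CTRL fed replicate 1 or AAKO fed replicate 4, and 1 was left without any of 14 other arrays. Of 20 genes of the growth hormone axis, Prlr alone was called (-1.50 ± 0.46), and it was not called without AAKO CL316243 replicate 6 (-1.40, adjusted p = 0.0553). The call was also lost without CTRL fed replicate 1 or 2, CTRL CL316243 replicate 3, 4 or 5, AAKO fed replicate 4, or AAKO CL316243 replicate 1 or 3.

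Circadian clock and output factors gave 2 lower calls among 20 genes, near the 4.52% of all genes. Dbp, a clock output factor, rose 3.34-fold in CTRL and 3.21-fold in AAKO, a difference of -0.06 ± 0.48 whose sign changed in several alternative fits. Nr1d1 rose by 2.92 and 3.16, and Arntl fell by 2.17 and 2.36. These 3 changes common to both genotypes cannot be told apart from experiment, gavage and vehicle. Both called members fell in AAKO: Hlf (difference -1.12 ± 0.18), a relative of Dbp, and Rora (-0.72 ± 0.20), an activator of Arntl.

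Housekeeping groups showed no call. None of 77 oxidative phosphorylation subunits, 78 cytosolic ribosomal proteins or 38 proteasome subunits was called in limma, against 10.9% of all genes. At an unadjusted limma p under 0.05 were 1, 4 and 4 of them, against 5622 of all 24251 genes. In the proteasome list 2 genes were called without CTRL CL316243 replicate 2 and 1 without AAKO CL316243 replicate 6. All differences in these lists lay between -0.35 and 0.52. Of cell type markers, the hepatocyte gene Tat was the 1 call in 13 lists of 3 to 10 tested genes, where 10.9% of all genes were called. Ucp1 was not well above background on any of the 24 arrays and none of 7 other adipocyte markers was called. The summed level of 7 exocrine pancreas markers was 1.93 to 2.58 in AAKO CL316243, 1.18 to 2.09 in AAKO fed, 0.65 to 1.41 in CTRL CL316243 and 0.67 to 1.63 in CTRL fed liver. Prss2 and Pnlip were not well above background on any of these arrays. Of the 7 markers 3 were tested, and none of these was called.

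Beyond the lists, the genes with the largest differences were named by size among those well above background on at least 5 of 6 arrays of every group and of 1 sign in both wash batches. Bhlha15, a transcription factor of secretory cells also known as Mist1, had the largest positive value. It was at -2.39, -1.49 and 0.01 in AAKO fed and 0.27, 2.04 and 2.91 in AAKO CL316243 mice, without overlap. CTRL levels were -2.28, -0.68 and 0.09 fed and -2.39, -1.46 and -0.82 after CL316243. The difference was 3.99 ± 0.61 or 15.9-fold (adjusted p = 3.98e-05), and the part of the pancreas markers in it was not tested. Ccr8, a chemokine receptor, rose 9.39-fold in AAKO (difference 3.10 ± 0.46). Tifa and Alpk1, which act together in innate sensing of bacterial sugars, rose 9.16-fold and 11.3-fold in AAKO, with differences of 2.51 ± 0.56 and 2.85 ± 0.66. The second Alpk1 probe gave 1.50. Krtap11-1 differed by 2.46 ± 0.47.

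On the negative side the genes after Fgf21 were Atp2b2, a calcium pump, at -4.03 ± 0.75 with -1.85 from its second probe, Acot3, and Celsr1, an adhesion receptor of planar cell polarity. Celsr1 was 1.64 to 2.79 in AAKO fed and -2.46 to -0.60 in AAKO CL316243 mice, with 1.86 to 2.33 and 0.83 to 2.15 in CTRL. It fell 13.6-fold in AAKO, and the difference was -3.21 ± 0.42 (adjusted p = 5.5e-06). Ly6d, a membrane protein, rose 12.8-fold in CTRL with 0.50 on the log2 scale in AAKO (difference -3.18 ± 0.61). E2f8, a repressor of the cell cycle, gave -2.83 ± 0.52, with -3.32 and -0.20 from its other probes, so its 3 probes differed widely.

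Among responses called in opposite directions, Tlr12, Paqr7 and Lgals4 had the largest negative and Eif4ebp3, Id3 and Tspyl2 the largest positive differences. Eif4ebp3, a repressor of translation, fell from 5.53 ± 0.34 to 3.79 ± 0.26 in CTRL and rose from 5.29 ± 0.50 to 6.42 ± 0.44 in AAKO. No CTRL mouse given CL316243 exceeded 4.13 and no other mouse was below 4.59. The difference was 2.89 ± 0.34 (adjusted p = 7.57e-07). Lgals4, a galectin, rose from 1.16 ± 0.09 to 2.83 ± 0.15 in CTRL and fell from 0.97 ± 0.25 to 0.07 ± 0.43 in AAKO (difference -2.60 ± 0.27, adjusted p = 2.04e-07). Paqr7, a membrane progestin receptor, fell 4.19-fold in AAKO and rose 1.57-fold in CTRL. Tlr12 differed by -3.00 ± 0.58, Id3 by 2.03 ± 0.43 and Tspyl2 by 1.99 ± 0.30.

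A few genes of the called set were not well above background on any array of at least 1 group, so only a bound holds there. It sets the mean of the brighter group against the lowest reliable signal of the dim group. The fitted differences of these genes rest on signal near background and are not given here. Tnfaip6, an inflammation-induced matrix protein, was at least 3.55-fold higher in AAKO than in CTRL liver after CL316243, with measured means of -3.84 and -6.78. It was above background on 2, 0, 1 and 6 arrays of CTRL fed, CTRL CL316243, AAKO fed and AAKO CL316243. Amigo3 was at least 2.83-fold higher after CL316243 than before it in AAKO liver, with 2, 0, 0 and 6 arrays above background.

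Adamts6 was at least 1.56-fold higher in CTRL than in AAKO liver after CL316243, and Cep72 at least 1.90-fold and Pde6a at least 1.25-fold. The brighter group had 5, 6 and 4 of its 6 arrays above background. None of the 3 genes was called with normexp background correction (adjusted p = 0.515, 0.315 and 0.634), and Pde6a was not called in the authors' deposited log2 values (adjusted p = 0.108). Tm4sf20 was above background on 0, 2, 1 and 5 arrays of the groups in the order given, and Rnf138rt1 on 1, 2, 3 and 6. Their levels in AAKO CL316243 mice were -3.03 ± 1.89 and -0.25 ± 0.32 (SD, n = 6). The call for Tm4sf20 was lost without CTRL fed replicate 1 or 6, without AAKO fed replicate 5 or without AAKO CL316243 replicate 4, 5 or 6.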

How the data were processed

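Liver RNA was measured on 36 single-colour Agilent arrays. The deposited scanner files hold spot intensity values written, per the file headers, by version 10.10.1.1 of Agilent's Feature Extraction software, with background subtracted in the processed signal, and marks of 0 or 1 for spots. The authors deposited log2 values of 36898 probes, whose normalization is not stated; by their values they were quantile normalized within each group, with column medians of 6.91, 6.91, 6.93 and 6.88 for CTRL fed, CTRL CL316243, AAKO fed and AAKO CL316243. The submitters' processing notes name limma.

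From the intensity values, log2 processed signal minus the log2 of the array's 75th percentile was computed, without spots marked as outliers (0.128%), spots of 1 probe being averaged. Each gene was represented by its brightest probe. Of 37325 genes, 24251 were tested, being well above background on at least 5 of 6 arrays of at least 1 group. All 36 arrays entered 1 limma fit (limma 3.58.1, R 4.3.3) with 6 group means and wash batch, and two-sided p-values were adjusted over all genes tested (Benjamini-Hochberg). A gene was called at an adjusted p under 0.05. The scripts were tested on simulated data of 24220 genes. Differences of 0.5, 1, 1.5 and 2 on the log2 scale were given to 50 genes each, and 22%, 58%, 84% and 96% were recovered. Far more genes were called in the data than were changed there, so these shares need not hold. A gene that was not called may still differ between the genotypes.

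Errors beside levels are SDs, and those beside differences are SEs of the fit. Named genes were the 8 highest and 8 lowest differences among called genes well above background on at least 5 of 6 arrays of every group and of 1 sign in both wash batches, the 3 called genes with the lowest p of each list, 3 on each side not above background in a group, 3 on each side with opposite responses, and 21 listed genes; further list members are given with their list. Genes whose probes disagreed in sign and clone or predicted names were left out of the ranked choices. Members and lists were chosen with earlier results of these data known. The number of arrays limits the precision, and where nothing says that mice came from separate litters or cages, p-values measure the spread between these samples, which may be technical in part. Alternatives covered scaling, background correction, filters, probes, batches, the replicate block, array weights and leaving out each array. A few list members are not reported by name here, in the text or in the plot of list members, and stay in the counts.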

Additional observations from a re-analysis of the deposited data

Results flagged for a closer look

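The response of 2635 genes to CL316243 differed between the genotypes by the test of that difference itself. Named genes with responses called in opposite directions gave differences, AAKO minus CTRL, of 2.89 for Eif4ebp3, 2.03 for Id3, 1.99 for Tspyl2 and 1.25 for Edem1. The negative ones were -0.68 for Cpt2, -0.81 for Creb3l3, -0.98 for Dhcr7, -1.04 for Ppara, -1.09 for Abcd3, -1.64 for Me1, -1.85 for Cep72, -1.90 for Acly, -2.43 for Crat, -2.60 for Lgals4, -2.72 for Paqr7 and -3.00 for Tlr12. The value for Cep72 rests on signal near background in AAKO CL316243 mice, and it was not called with normexp background correction.

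In 31 of 388 combinations of a named gene and a group (7.99%), 1 array lay far from the other 5 by Dixon's criterion, which chance meets in about 1 group in 20. CTRL fed replicate 6 was that array most often. Its log2 levels were -2.61 for Ccr8, 4.90 for Cyp3a13, 6.75 for Ephx1, 3.07 for Gclc, 8.94 for Mt2, 0.083 for Osmr, -2.89 for Rnf138rt1, 9.60 for Saa1, 5.93 for Srebf1 and 1.98 for Tifa. CTRL fed replicate 4 stood apart at 6.50 for Acly, 0.98 for Inhba and 3.54 for Pnpla2, and CTRL fed replicate 1 at 4.11 for Edem1 and 2.03 for Mvd. Among CTRL CL316243 mice it was replicate 4 at 2.99 for Bag3, 0.074 for Cyp2b10 and 1.56 for Dhcr7, replicate 5 at 5.59 for Dbp and -2.37 for Pdk4, and replicate 1 at -6.67 for Pde6a.

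In AAKO fed mice, replicate 4 stood apart at 4.54 for Gclc and 6.31 for Gpam, replicate 6 at -2.68 for Ccr8 and replicate 1 at 7.32 for Tat. In AAKO CL316243 mice, replicate 6, the array with skeletal muscle markers, stood apart at 4.50 for Gclm, 8.22 for Pck1 and 0.94 for Pdk4. Replicate 2 of that group stood apart at 7.25 for Eif4ebp3 and 4.07 for Plin2, and replicate 1 at 0.10 for Pik3r1.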

How the results depend on the processing

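Wash batch 1 alone gave 460 calls (234 higher, 226 lower in AAKO) and wash batch 2 alone 476 (328 higher, 148 lower). Testing all probes separately gave 3869 calls, 1691 of them lower. Leaving out 1 array at a time gave 2221 to 2997 calls, 1307 to 1678 of them higher and 883 to 1319 lower, and between 2186 and 2540 of the 2635 genes were kept. The counts were 2518 with normexp background correction, 2646 with quantile normalization, 2100 with no filter on dim probes, 3477 with array weights, 2863 with only the 24 arrays of fed and CL316243 mice and 2717 in the authors' deposited log2 values. Of the 2635 called genes, 2623 kept their sign with the mean of all probes of a gene, 2633 in wash batch 2 and 2634 with normexp. Among the named genes, those that changed sign were Cpt1a and Dbp, both uncalled: Cpt1a was -0.11 in wash batch 2, and Dbp was 0.0090 in wash batch 2, 0.10 with array weights, and -0.21 to 0.20 when each array was left out. Same-numbered samples deviated together little (36 pairs, median correlation 0.028, highest 0.36, 8 above 0.1), and other pairs had a median of -0.0086. For 6 of 24 arrays the best match carried the same number. Whether the numbers pair mice is not stated, and these values cannot decide it. With the replicate number as a block 2614 genes were called in limma, Hspa1a (adjusted p = 0.0227) and Egr1 (0.032) among them. Of the named genes not called in the main fit, Egr1 was called in 9 of 40 alternative fits, Hspa1a in 8, Angptl8 in 6 and Cidec in 2. The median for fatty acid oxidation outside mitochondria was -0.46 with normexp. Signal over background limits Rnf138rt1, Cyp4a14 and the genes given as bounds. The size of the difference of other dim genes also moved with the fit, without a change of sign. It lay between 1.62 and 3.36 for Ccr8 and between 1.64 and 3.18 for Alpk1. The range was -4.74 to -2.17 for Atp2b2 and -2.89 to -0.96 for Il1rn.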

Other observations

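The 19 genes called between genotypes in fed liver were followed into the CL316243 state. Lower in AAKO fed liver were Cyp2b10 (-3.53) and Cyp2b9 (-3.47), drug-metabolising cytochromes, Rufy4 (-2.11), the lysolipid transporter Mfsd2a (-1.65), the melatonin receptor Mtnr1a (-1.61) and Vnn1 (-1.35). Higher were the kininogens Kng2 (0.84) and Kng1 (0.46), Tuba8 (1.28), a tubulin, and Camk1d (0.81), a calcium-dependent kinase. Of the 19 genes, 8 were also called for the difference of responses: Mtnr1a by -2.74 ± 0.42 (adjusted p = 4.03e-05), Rufy4 by -1.74, Vnn1 by -1.12, Camk1d by -0.81, Urm1 by 0.46, Cyp2b9 by 2.73, Cyp2b10 by 2.77 and 1 unnamed transcript by 1.32. Of these 8, Mtnr1a, Rufy4 and Vnn1 were further below CTRL after CL316243 than in fed liver, with genotype differences there of -4.35, -3.85 and -2.47. Cyp2b10, Cyp2b9, Camk1d and the unnamed transcript were at -0.76, -0.74, 0.0038 and 0.18, none called in that state. Urm1 went from -0.30 in fed liver to 0.17 after CL316243. Both genotype differences share arrays with the difference of responses and are not independent of it.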
